A study of Mus musculus with 6 samples.

Results

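SR proteins, heterogeneous nuclear ribonucleoproteins (hnRNPs) and the proteins that act beside them were followed at the transcript level in RAW264.7 cells given extra miR-125b. Members were taken by gene symbol: every gene whose symbol starts with Srsf, Hnrnp or Srrm, together with Nktr, Son, Tra2a, Tra2b, Pnisr and the kinases Clk1, Clk2, Clk3 and Clk4. The rule found 42 of the 16665 genes in the table, namely 11 SR protein genes, 7 SR-related genes, 4 CLK kinase genes and 20 hnRNP genes. With a mean of at least 1 FPKM over the 6 libraries, 41 entered the test; Srsf12, at 0 to 0.124 FPKM, did not.

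RAW264.7 is a mouse macrophage-like cell line derived from a leukaemia. Per the labels, all 6 samples were transfected: 3 carried a miR-125b mimic and are described as overexpressing it, and 3 carried a negative control and are described as wild type for miR-125b. One cell line was used, the time after transfection and the arm of the mimic are not given in the labels, and nothing there says whether the 3 samples of a group were separate cultures, so p-values measure a spread that may be technical. The libraries do not measure the mature microRNA, so its level could not be checked.

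SR proteins carry RNA recognition motifs and a tail rich in arginine-serine dipeptides; bound to exonic enhancers, they help the spliceosome to choose exons. The SR-related proteins share that tail without the same domain layout, and many of them sit in nuclear speckles, the stores of splicing factors. CLK kinases phosphorylate the tails and release SR proteins from the speckles, while many hnRNPs bind silencers and oppose exon inclusion. Genes of these families are known to tune their own level by splicing in an exon with a stop codon, which sends the transcript to nonsense-mediated decay.

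The mature mmu-miR-125b-5p is shown because its seed was used for the matches given below. That the mimic carries this arm is an assumption, since the labels do not give the arm. RefSeq places it at chr16:77646279-77646300 and at chr9:41581940-41581961 (GRCm38.p6, plus strand); capitals mark the seed, bases 2 to 8.
mmu-miR-125b-5p: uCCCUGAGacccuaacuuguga

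The deposited values are FPKM, fragments per kilobase of gene scaled to the depth of the library. Recovered depths were 14.4 to 16.8 M fragments per library, and each tested member rested on 239 to 14537 recovered fragments per library, which limits counting error only, since fragments amplified from one molecule are not independent. Between 15141 and 15470 genes were above 0 in 5 libraries and 13266 in negative control 3. That library stood apart in other ways given beside the results. All 9 macrophage markers were present, with summed levels of 7140 to 8620 FPKM in controls and 6380 to 6650 with the mimic, dominated by Lyz2; Mertk was low at 0.0686 to 0.345 FPKM. T cell markers summed to at most 0.0749 FPKM, B cell markers to at most 0.484 and fibroblast markers to at most 0.0453, and none of the 3 epithelial markers looked for had a value here. The erythroid markers Hba-a1 and Hbb-bs were low. Their sums were higher with the mimic, at 2.32 to 4.29 FPKM against 0 to 1.4 in controls, without overlap. That came from Hbb-bs, at 1.00, 0.465 and 0 FPKM in controls and 1.98, 3.84 and 2.79 with the mimic. Hba-a1 overlapped, at 0.395, 0.806 and 0 FPKM in controls and 0.341, 0.445 and 0.320 with the mimic. The part of these markers in the results was not tested.

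No member passed limma on log2(FPKM + 1) with Benjamini-Hochberg adjustment over all 10166 tested genes (smallest adjusted p = 0.332); nor did any gene (0%), and limma voom on recovered fragments called 0 as well. At an unadjusted p under 0.05, 5 members were higher with the mimic (Nktr, Srsf5, Srrm2, Son and Clk4), against 7.96% of all tested genes. In the same way 2 were lower (Hnrnpa0 and Srsf9), against 5.26%. Groups that did not overlap were found in 5 members on the higher side (Nktr, Srsf5, Srrm2, Son and Hnrnpu; 12.6% of all tested genes) and in 3 on the lower side (Hnrnpa0, Srsf9 and Hnrnpc; 7.49%). Counts of separated groups were thus near the background on both sides. In all 3 same-numbered pairs the mimic was above its control in 7 members, those 5 with Pnisr and Srrm1 (24.1% of all tested genes). It was below in 6 members, those 3 with Hnrnpa1, Hnrnpl and Clk2 (16.2%). The fit with the replicate number as a block called no member. The median log2 fold change (mimic minus control) was 0.076 over the members and 0.041 over all tested genes.

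The classes differed in where their members lay. Of the 7 SR-related genes 6 were higher, with a median of 0.31, and of the 10 SR protein genes 7 were higher, with a median of 0.16. The CLK kinases split evenly, and of the 20 hnRNP genes 9 were higher and 11 lower (median −0.031). Over all 10166 tested genes 5728 were higher and 4438 lower. Summed over all 20 genes, hnRNP levels were 1134, 1152 and 1322 FPKM in controls 1, 2 and 3 and 1087, 1139 and 1169 with the mimic. SR-related genes summed to 193, 186 and 225 FPKM in controls and 242, 236 and 270 with the mimic, without overlap. Taken singly, 3 of these 7 genes did not overlap. The separation of the sum leans on Srrm2, the most abundant of them. Srrm2 read 55.2, 47.9 and 34.0 FPKM in controls and 69.1, 61.4 and 73.6 with the mimic. Without negative control 3 the median was 0.47 for SR-related genes, 0.34 for SR protein genes and 0.039 for hnRNP genes, which turned its sign. These differences between classes are described by counts, and no test of them was made.

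**Figure D1:**
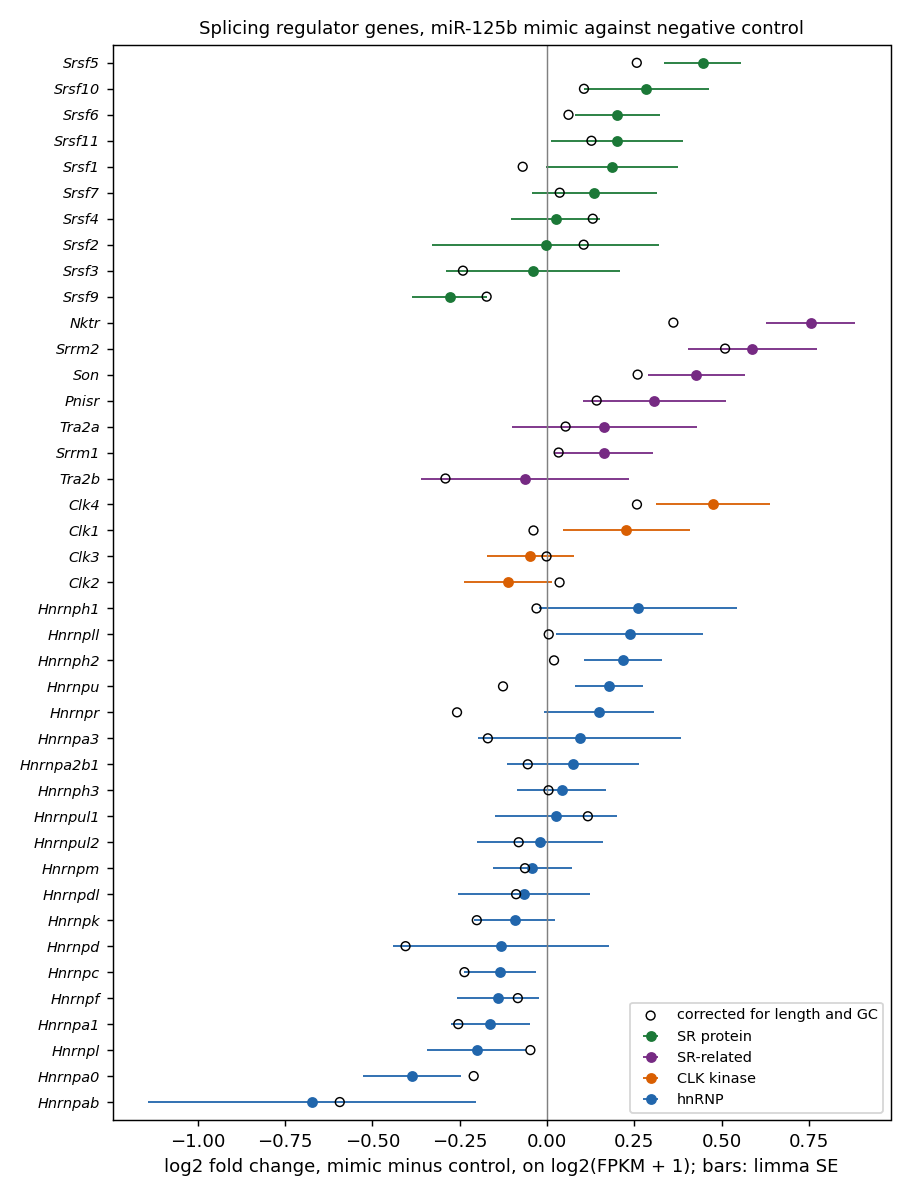
Log2 fold changes (mimic minus control, on log2(FPKM + 1)) of the 41 tested members by class; filled points with bars are limma estimates with their SE, open circles the estimates after correction for length and GC. SR-related genes reach from −0.063 (Tra2b) to 0.76 (Nktr), hnRNP genes from −0.67 (Hnrnpab) to 0.26 (Hnrnph1), and most open circles lie to the left of their points.

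Long and AT-rich transcripts read higher with the mimic in the whole table, and the members are of that kind. Their longest transcripts had a median of 3784 bases and 43.9% GC, against 3182 bases and 49.0% over all tested genes. Across the 41 members the log2 fold change went with log2 length (Spearman's rho 0.57) and against GC (−0.54); across all tested genes rho was 0.41 and −0.55. Genes in one library are not independent, so these are descriptions without a p-value. For a corrected set of values, a smooth trend on length and GC was taken out of each library. Whether the trend is technical or an effect of the mimic was not tested, and the correction may remove either. Then the median of the members was −0.030 (0.027 over all genes). Still higher were 7 of 10 SR protein genes and 6 of 7 SR-related genes, and 16 of 20 hnRNP genes were lower. Over all 10128 genes with corrected values, 5649 were higher and 4479 lower. On the corrected values Nktr and Srrm2 were higher at an unadjusted p under 0.05 (2 members, beside 5.04% of all genes) and 4 members were lower (2.83%): Hnrnpa0, Hnrnpa1, Hnrnpk and Hnrnpr.

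Among SR proteins, Srsf5 had the smallest p. Srsf5 (ENSMUSG00000021134; GRCm38 chromosome 12, 80945504 to 80950507, plus strand) encodes the SR protein SRp40, first known as an early response gene in regenerating rat liver. It read 39.0, 36.3 and 37.9 FPKM in controls 1, 2 and 3 and 52.4, 56.2 and 47.2 in mimics 1, 2 and 3. The groups did not overlap, and negative control 3 lay with the other controls. The log2 fold change was 0.45 (SE 0.11, limma adjusted p = 0.332), or 0.26 after correction for length and GC.

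Srsf9 (ENSMUSG00000029538; chromosome 5, 115327177 to 115333080) encodes a small SR protein with a very short arginine-serine tail. It was the only SR gene on the lower side at an unadjusted p under 0.05. It read 39.5, 39.1 and 41.7 FPKM in controls and 30.2, 34.3 and 34.4 with the mimic, so every mimic library was below every control. The log2 fold change was −0.28 (SE 0.11, limma adjusted p = 0.351), and −0.17 after that correction. Its longest transcript, 1392 bases, was the shortest of all members.

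Other SR proteins overlapped between the groups. Srsf6, a general splicing activator, read 24.6, 22.7 and 28.4 FPKM in controls and 30.9, 28.9 and 27.5 in mimics (difference 0.20 on the log2 scale, SE 0.12, limma adjusted p = 0.498). Negative control 3 lay within the range of the mimics. Srsf10, which acts as a repressor when dephosphorylated in heat shock, read 21.9, 22.4 and 34.3 FPKM in controls and 30.1, 31.4 and 33.1 with the mimic (0.28, SE 0.18, limma adjusted p = 0.509). Here negative control 3 was the highest of all 6 libraries. The same held for Srsf11, at 28.6, 28.1 and 45.4 FPKM in controls and 37.4, 37.8 and 39.6 with the mimic (0.20, SE 0.19, limma adjusted p = 0.662). Srsf2 (SC35), the classical speckle protein and the most abundant SR transcript, read 69.4, 65.5 and 139 FPKM in controls and 70.2, 74.8 and 120 with the mimic (−0.0036, SE 0.33, limma adjusted p = 0.997). In Srsf2 library 3 of each group was high and the groups as a whole were level. The remaining tested SR genes (Srsf1, Srsf3, Srsf4 and Srsf7) had log2 fold changes between −0.040 and 0.19, all overlapping.

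Among SR-related proteins, Nktr had the smallest p. Nktr (ENSMUSG00000032525; GRCm38 chromosome 9, 121719169 to 121756843, plus strand) encodes a large cyclophilin with arginine-serine stretches, first found on natural killer cells. It read 10.2, 9.95 and 12.4 FPKM in controls 1, 2 and 3 and 18.0, 18.4 and 20.6 in mimics 1, 2 and 3, with a wide gap between the groups. The log2 fold change was 0.76 (SE 0.13, unadjusted p = 0.000496, limma adjusted p = 0.332). Corrected for length and GC it was 0.36; its longest transcript has 8950 bases and 37.0% GC, the lowest GC of all members.

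Srrm2 (ENSMUSG00000039218; chromosome 17, 23790532 to 23824741) and Son (ENSMUSG00000022961; chromosome 16, 91647506 to 91679221) encode the giant scaffold proteins that form the core of nuclear speckles. Srrm2 read 55.2, 47.9 and 34.0 FPKM in controls and 69.1, 61.4 and 73.6 with the mimic (0.59, SE 0.19, limma adjusted p = 0.332). Its estimate changed least among the 5 higher members after that correction (0.51), and negative control 3 was its lowest library. Son read 13.9, 14.5 and 15.8 FPKM in controls and 22.1, 21.99 and 16.8 with the mimic (0.43, SE 0.14, limma adjusted p = 0.332). The groups did not overlap, but mimic 3 lay just above negative control 3.

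Pnisr, a speckle protein with arginine-serine repeats, overlapped between groups at 25.4, 25.1 and 40.9 FPKM in controls and 33.2, 36.0 and 42.3 with the mimic (0.31, SE 0.21, limma adjusted p = 0.531). Srrm1, a coactivator that bridges enhancer complexes, read 43.3, 42.7 and 32.2 FPKM in controls and 45.9, 43.8 and 42.0 with the mimic (0.16, SE 0.14, limma adjusted p = 0.625). In Srrm1 mimic 3 lay below both controls 1 and 2. The Transformer-2 homologues are activators of exons with purine-rich enhancers. On the log2 scale Tra2a stood at 0.16 (SE 0.26, limma adjusted p = 0.802) and Tra2b at −0.063 (SE 0.30, limma adjusted p = 0.943). Without negative control 3 these were 0.47 (limma adjusted p = 0.0569) and 0.28 (turned in sign). Without replicate 3 of both groups, a choice made after the data were seen, they were 0.32 (limma adjusted p = 0.00456) and 0.11. In that fit 4377 of all 10166 tested genes passed, as did 23 of the 41 members.

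Of the CLK kinases, Clk4 (ENSMUSG00000020385; chromosome 11, 51261730 to 51281766) had the smallest p. It read 11.7, 11.4 and 15.5 FPKM in controls and 18.5, 20.8 and 15.5 in mimics (difference 0.47 on the log2 scale, SE 0.16, limma adjusted p = 0.332). Libraries 3 of both groups had nearly the same level, so the difference lay in libraries 1 and 2. Clk1 read 23.7, 23.9 and 37.0 FPKM in controls and 30.5, 32.5 and 34.5 with the mimic (0.23, SE 0.18, limma adjusted p = 0.605), with negative control 3 the highest. Clk2 stood at 12.1, 10.0 and 9.43 FPKM in controls and 9.92, 9.68 and 9.25 with the mimic (−0.11, SE 0.13, limma adjusted p = 0.719). Clk3 stood at 19.0, 20.5 and 17.9 FPKM in controls and 17.0, 17.4 and 21.1 with the mimic (−0.048, SE 0.13, limma adjusted p = 0.891). All 4 kinases overlapped between the groups, and of them Clk4 alone had an unadjusted p under 0.05. The longest annotated transcripts of Clk1 and Clk4 are AT-rich (39.2% and 38.8% GC), and those of Clk2 and Clk3 are not (55.4% and 52.6%). All 4 genes have annotated retained-intron transcripts, so the longest one may not be the mRNA present. After that correction Clk1 stood at −0.039 and Clk4 at 0.26.

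Among hnRNPs, Hnrnpa0 (ENSMUSG00000007836; chromosome 13, 58125879 to 58128556) had the smallest p. The gene encodes an AU-rich element binding protein of the A/B family. It read 133, 130 and 99.1 FPKM in controls and 93.9, 87.0 and 93.2 in mimics (difference −0.39 on the log2 scale, SE 0.14, limma adjusted p = 0.344). The groups did not overlap, but negative control 3 lay close to the mimics. After that correction the estimate was −0.21.

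Hnrnpab had the largest difference in size among the hnRNPs and the widest spread. It read 42.9, 43.1 and 11.9 FPKM in controls and 21.001, 18.9 and 13.0 with the mimic (−0.67, SE 0.47, limma adjusted p = 0.546). Negative control 3 was below every mimic library, so the groups overlapped. Of its annotated exon bases, 29.1% overlap exons of Phykpl on the opposite strand. The counting is not stated to use strand, so reads of the pair cannot be told apart, though Phykpl itself averaged 2.29 FPKM. Other members share this limit. Among them are Srsf2 (15.6% with Mettl23 at 12.5 FPKM, 9.7% with Mfsd11 at 3.2 FPKM), Clk3 (15.2% with Edc3 at 7.88 FPKM) and Srsf4 (43.0% with Gm12992 at 0.221 FPKM).

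Hnrnpa1, the most abundant member and a classical silencer-binding protein, read 188, 203 and 210 FPKM in controls and 167, 195 and 176 with the mimic (−0.16, SE 0.11, limma adjusted p = 0.548). The groups overlapped through control 1 and mimic 2. Hnrnpu, which binds RNA and chromatin scaffold, read 50.5, 50.7 and 53.2 FPKM in controls and 57.5, 57.9 and 59.6 with the mimic (0.18, SE 0.096, limma adjusted p = 0.462), without overlap. Its direction turned after correction for length and GC (−0.13). Hnrnph2, a binder of G runs, read 29.5, 30.4 and 33.46 FPKM in controls and 37.5, 38.1 and 33.41 with the mimic (0.22, SE 0.11, limma adjusted p = 0.437). Hnrnpl, which binds CA repeats, read 56.2, 52.7 and 41.4 FPKM in controls and 44.8, 44.5 and 40.0 with the mimic (−0.20, SE 0.14, limma adjusted p = 0.546). In both, negative control 3 lay within the mimics' range. Hnrnpc, a binder of uridine tracts in nascent transcripts, was separated narrowly, at 98.4, 103 and 91.8 FPKM in controls and 89.6, 90.2 and 87.1 with the mimic (−0.13, SE 0.10, limma adjusted p = 0.578). The 14 hnRNP genes other than the first 6 described had log2 fold changes between −0.14 and 0.26.

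**Figure D2:**
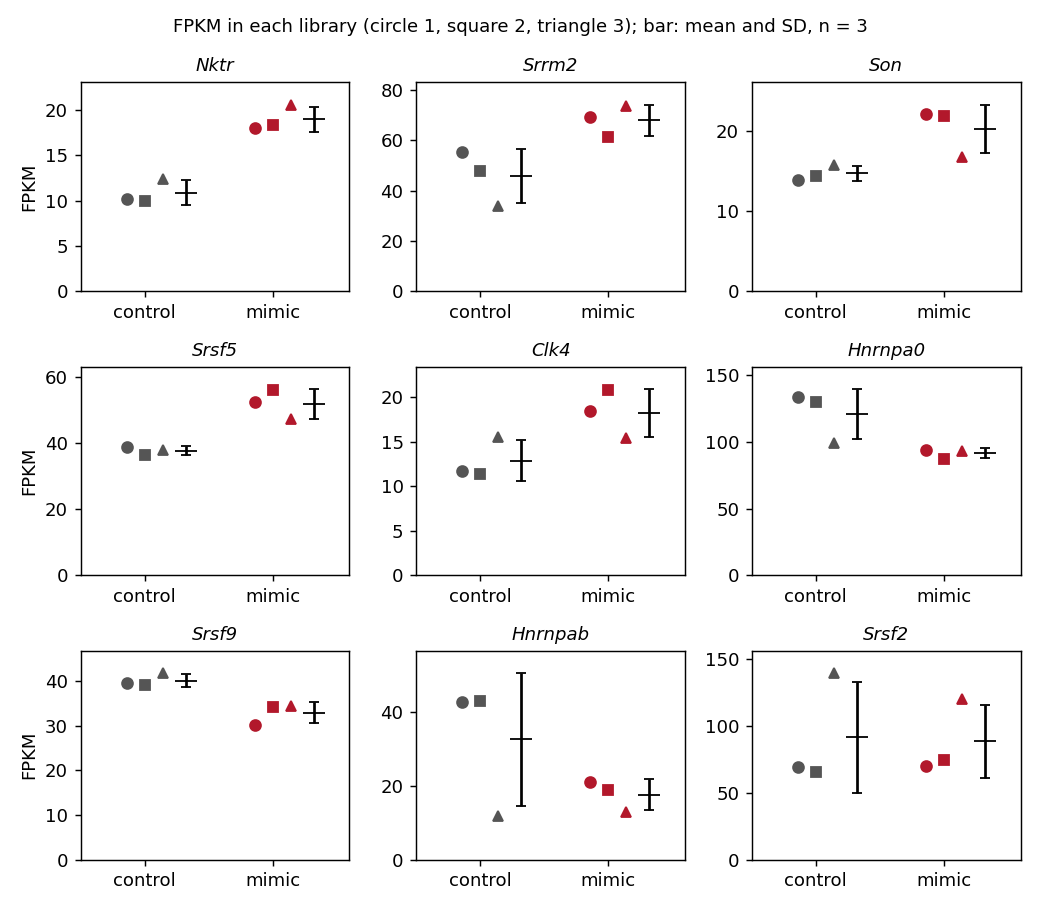
FPKM of 9 members in each library (circle library 1, square library 2, triangle library 3; grey controls, red mimics), with the mean and SD of each group (n = 3). Nktr, Srrm2, Son, Srsf5, Hnrnpa0 and Srsf9 do not overlap between groups, Hnrnpab is low in negative control 3 at 11.9 FPKM, and Srsf2 is high in library 3 of each group at 139 and 120 FPKM.

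Libraries of the same group differed as well. In negative control 3, 16 members were at least 1.5 times the mean of controls 1 and 2, beside 11.3% of all tested genes. Another 4 were at least that fold below (25.0% of all tested genes): Hnrnpab, Srrm2, Hnrnpul1 and Hnrnpul2. The whole table thus had more genes low than high in this library, and the members had more high than low. More high than low was also seen in the 48 tested other splicing regulators described below (12 and 8). Over all 116 other splicing genes of the lists below, 22 were high and 22 low by the same limits. In mimic 3, 2 members were at least 1.5 times the mean of mimics 1 and 2 (Srsf2 and Hnrnpa3; 4.05% of all genes) and 1 was at least that fold below (Hnrnpab; 9.54%).

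Members that stood out as high in negative control 3 are named here after their values were seen. They were the SR genes Srsf2 and Srsf3, the homologues Tra2a and Tra2b, and Hnrnpd, Hnrnph1 and Hnrnpa3. Hnrnpab shifted further in the other direction (−1.77 on the log2 scale, against 1.11 for Hnrnpd). Tra2b read 17.7, 18.6 and 37.8 FPKM in controls and 19.2, 20.1 and 28.3 with the mimic. Hnrnpd, an AU-rich element decay factor also called AUF1, read 18.0, 18.8 and 40.9 FPKM in controls and 19.1, 20.2 and 26.9 with the mimic. In both, library 3 of each group was above its partners, more so in the controls. Hnrnph1, a G-run binder, read 83.2, 78.9 and 163 FPKM in controls and 109, 115 and 149 with the mimic. Srsf3, the smallest SR protein, read 18.2, 18.1 and 33.3 FPKM in controls and 19.4, 19.7 and 26.3 with the mimic. Each of these 4 genes was highest in negative control 3 and second highest in mimic 3.

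Over the 41 members the shift of negative control 3 from its partners went with that of mimic 3 (Spearman's rho 0.63; 0.29 over all tested genes), and no library enters both shifts. The shift of negative control 3 also went against GC (rho −0.57 over the members, −0.52 over all genes), and the part of base composition in the difference between libraries was not tested further. Fewer cells in a given state and less RNA per cell cannot be told apart in these bulk libraries.

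**Figure D3:**
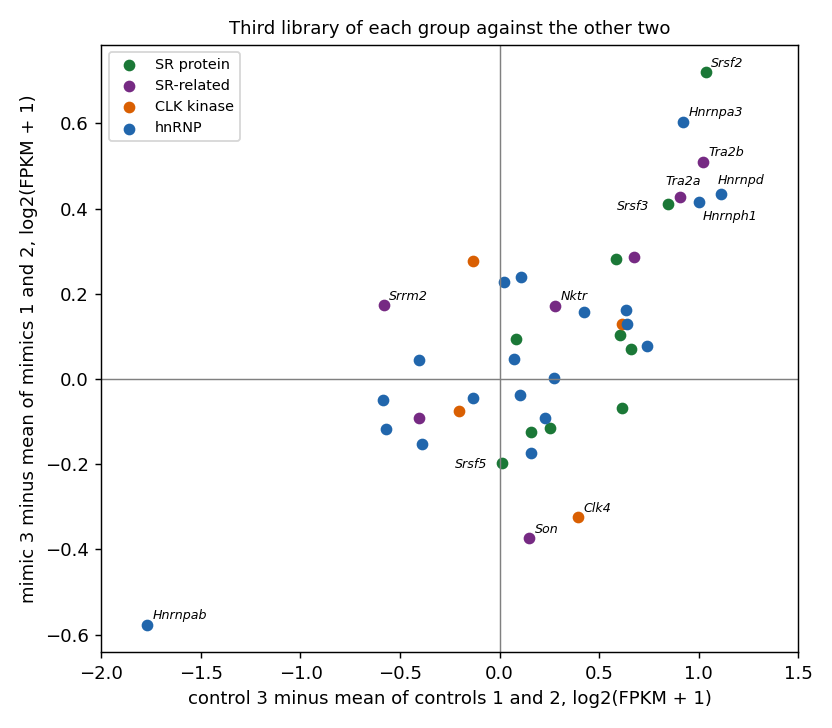
Shift of library 3 from the mean of libraries 1 and 2 on log2(FPKM + 1), negative controls on the x axis and mimics on the y axis, 1 point per tested member coloured by class. Srsf2, Tra2b, Hnrnpd, Hnrnph1 and Hnrnpa3 lie high on both axes, Hnrnpab low on both, and Srrm2 is low in the controls (−0.58) and not in the mimics.

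Leaving out negative control 3 changed the calls. Then 16 members passed limma at an adjusted p of 0.05, 13 higher (11.6% of all tested genes) and 3 lower (12.2%). In 12 of the 16, negative control 3 was closer to the average mimic than to its 2 partners, as it was in 30 of the 41 members and in 65.7% of all tested genes. The 4 exceptions were Nktr (log2 fold change 0.85, limma adjusted p = 0.00524), Srsf5 (0.45, limma adjusted p = 0.0194), Srrm2 (0.39, limma adjusted p = 0.0389) and Son (0.48, limma adjusted p = 0.0432). With the same correction on top, these 4 did not pass (0.22, 0.12, 0.36 and 0.30), and 2 members did, both lower: Hnrnpab (−1.13) and Hnrnpc (−0.36), beside 2.04% of all genes. For Hnrnpab the call rests on leaving out the control library that read below the mimics.

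**Figure D4:**
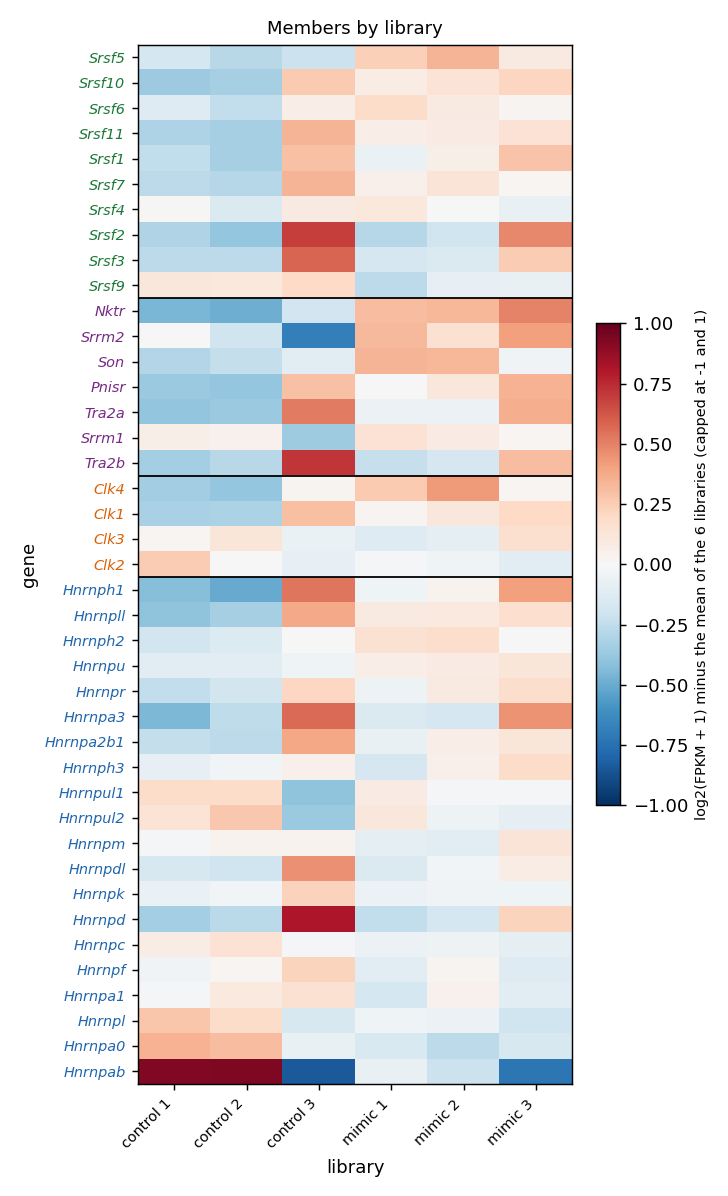
Log2(FPKM + 1) of each tested member in each library minus its mean over the 6 libraries (red above, blue below; values beyond −1 and 1 are capped), rows grouped by class. The column of control 3 differs from controls 1 and 2 in most rows, with Srsf2, Tra2b and Hnrnpd high and Hnrnpab and Srrm2 low.

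The FPKM of a gene adds all its transcripts, including those annotated as subject to nonsense-mediated decay. Such a transcript is annotated in GENCODE M21 for 30 of the 41 tested members (73.2%), against 31.2% of tested protein-coding genes. It was 9 of 10 SR protein genes, all 7 SR-related genes, all 4 CLK kinases and 10 of 20 hnRNP genes. A retained-intron transcript is annotated for 32 of the 41 (78.0%, against 63.2% of protein-coding genes). Among protein-coding genes of the 4 other splicing lists described below, 45.6% had a decay transcript and 76.3% a retained-intron transcript. The retained-intron share was thus not particular to the members. Well studied genes have more annotated transcripts, and these tables do not show which transcript was present.

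For 11 members the premature stop lies in an internal exon that shares no base with a protein-coding transcript of the gene. The exons of 4 are shown, because a transcript with such an exon adds to the FPKM of the gene and ends early, and because Tra2b, Tra2a and Srsf3 were among the members that differed most between libraries. Each line gives the bases up to the premature stop codon, which is in capitals, read from GENCODE M21 transcripts on GRCm38. The exon of Tra2b has 276 bases (397 in another annotated transcript with the same stop) and its window is chr16:22259181-22259210, minus strand. That of Tra2a has 306 bases (chr6:49252965-49252994, minus strand), that of Srsf3 456 bases (chr17:29039458-29039487, plus strand) and that of Srsf9 358 bases (chr5:115328399-115328428, plus strand).
Tra2b: aatgagtatttgaagctcaggaataagTGA
Tra2a: aaaaaattgaacagaagattggtcagaTAG
Srsf3: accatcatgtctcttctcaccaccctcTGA
Srsf9: cctgggttggagattacggattcacagTAG
In Tra2b, Tra2a and Srsf3 the gene totals differed 1.84 to 2.08 times between negative control 3 and its partners, and the share of transcripts with these exons was not measured. Srsf9 was lower in every mimic library and did not pass (limma adjusted p = 0.351).

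Matches to the miR-125b-5p seed were looked for in the members, on the assumption that the mimic carries this arm. For each gene the longest 3′ UTR in the annotation was scanned for the 8mer CTCAGGGA, the 7mer-m8 CTCAGGG and the 7mer-A1 TCAGGGA, on the transcript strand, counting a 7mer only outside an 8mer. They were found in 5 of 41 tested members (12.2%), against 22.2% of 9313 tested genes with a 3′ UTR; no test of this difference was made. The 5 were Nktr, Srsf6, Hnrnpab, Hnrnpr and Hnrnpul2. The sites are shown with the match in capitals, since they are the letters by which these members match the microRNA: Nktr at chr9:121756140-121756169 (plus strand, GRCm38), Hnrnpab at chr11:51600587-51600616 (minus strand), Srsf6 at chr2:162936431-162936460 (plus strand), and the 8mer of Hnrnpr at chr4:136356081-136356110 (plus strand).
Nktr: tgactcatctgCTCAGGGtctcaaggtaag
Hnrnpab: ggtgcttgatcCTCAGGGtttcacaacttc
Srsf6: tctctttgtttTCAGGGAaaactatataaa
Hnrnpr: tttctgcgcatCTCAGGGAgttgagctgtc
These 5 genes did not share a direction. Nktr had the highest log2 fold change of all members (0.76) and Hnrnpab the lowest (−0.67), while Srsf6 stood at 0.20, Hnrnpr at 0.15 (−0.26 after that correction) and Hnrnpul2 at −0.019. The annotated 3′ UTR of Hnrnpr has 19419 bases and holds 5 sites, and these data do not show which end the cells use. A match is only a match of letters.

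Genes around the members gave no call either. Among kinases other than CLK, phosphatases, methyltransferases and importins of SR proteins, 16 of 18 listed genes were tested; 12 were higher and 4 lower, none at an unadjusted p under 0.05. After correction for length and GC, 7 were higher and 9 lower (median −0.015). Tnpo3, the importin that carries phosphorylated SR proteins into the nucleus, read 11.6, 11.9 and 8.86 FPKM in controls and 13.0, 13.6 and 12.4 in mimics (difference 0.26 on the log2 scale, SE 0.14, limma adjusted p = 0.455). The SR protein kinase Srpk2 stood at 6.25 ± 0.595 and 7.34 ± 0.180 FPKM (SD, n = 3; 0.20, SE 0.12), and Prpf4b at 24.7 ± 6.34 and 31.8 ± 1.55. Tnpo3 and Srpk2 did not overlap between groups; after that correction Tnpo3 stood at 0.18, Prpf4b at 0.067 and Srpk2 at −0.084.

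Of 53 other splicing regulators 48 were tested, 38 higher and 10 lower, with a median of 0.21; 8 higher and 1 lower had an unadjusted p below 0.05, beside 7.96% and 5.26% of all tested genes. After that correction 30 were higher and 18 lower, with a median of 0.045. Rbm5, a regulator of apoptosis gene splicing, read 4.17, 4.71 and 4.60 FPKM in controls and 7.91, 7.53 and 5.58 with the mimic (0.53, SE 0.15, limma adjusted p = 0.332). The poly(C)-binding protein Pcbp1 was the lower one, at 146, 145 and 105 FPKM in controls and 97.3, 89.2 and 88.5 with the mimic (−0.51, SE 0.15, limma adjusted p = 0.332). The muscleblind protein Mbnl1 (0.49, SE 0.15) and the polypyrimidine tract binder Ptbp3 (0.44, SE 0.15) were higher without overlap. After that correction the 4 stood at 0.30, −0.25, 0.21 and 0.12.

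All 35 listed genes of other arginine-serine and speckle components were tested, 23 higher and 12 lower (median 0.14); an unadjusted p below 0.05 was reached by 4 higher and 0 lower ones, beside 7.96% and 5.26% of all tested genes. After that correction 19 were higher and 16 lower (median 0.012). Those 4 were the splicing regulator Srek1 (0.28, SE 0.10), the export complex subunit Thoc2 (0.57, SE 0.22), Scaf4, which binds the tail of RNA polymerase II (0.37, SE 0.15), and Rsrc1 (0.28, SE 0.12). Corrected, they stood at −0.014, 0.21, 0.45 and 0.022. Of the 17 nonsense-mediated decay genes, all tested, 6 were higher and 11 lower (median −0.045); an unadjusted p below 0.05 was reached by 1 higher and 2 lower ones. After that correction 7 were higher and 10 lower (median −0.084). The kinase Smg1, which phosphorylates the decay factor UPF1, read 16.9, 17.0 and 23.0 FPKM in controls and 26.4, 26.3 and 25.6 with the mimic (0.45, SE 0.14, limma adjusted p = 0.332). Its partner Smg9, a part of the same complex, read 10.8, 11.7 and 10.7 FPKM in controls and 9.31, 7.13 and 8.08 with the mimic (−0.40, SE 0.13, limma adjusted p = 0.332). The helicase Dhx34 stood at −0.29 (SE 0.13). After that correction Smg1 stood at 0.15, Smg9 at −0.14 and Dhx34 at −0.15.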

How the data were processed

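Per the file's name and values, the authors deposited FPKM values, 1 column per sample, for 16665 Ensembl gene identifiers; replicates were not pooled. The tools fastp, HISAT2 and DESeq2 and the build mm10 are listed, per the submitters' processing notes; not given in the sources used here are versions, annotation, counting tool and use of strand. Group and number came from sample titles. Symbols were found for 16568 identifiers; positions and transcripts came from GENCODE M21 (GRCm38).

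The 10166 genes averaging at least 1 FPKM were fitted on log2(FPKM + 1) by limma 3.58.1 (R 4.3.3, eBayes with trend). Tests were two-sided, adjusted by Benjamini-Hochberg over all tested genes, threshold 0.05. The procedure was tested on simulated data with independent genes of equal spread. Those data held neither an outlying library nor a length and GC trend, so that check does not cover them. A fold change on this scale understates changes of low genes. Depth was recovered from whole steps of low FPKM: of values worth at most 20 fragments, 98.5% to 99.0% were whole to within 0.1. The length and GC trend was removed per library with natural splines (4 degrees of freedom each, longest transcript), over 10128 genes. The longest transcript could be of any annotated type, retained-intron ones included, so its length and GC may differ from those of the mRNA.

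Members and lists were chosen with earlier results of these data known. Fully described members are the 5 with the smallest p of each class (all 4 CLK kinases) and the most abundant of each class; for other lists, up to 4 with the smallest p. Same-numbered samples deviated together from their group means over tested genes (Pearson's r 0.287, 0.183 and 0.339 for numbers 1, 2 and 3), so by that rule the numbers were taken to pair the samples; the labels do not say what a number marks, and control 2 with mimic 1 gave 0.308, above either same-numbered value of these samples. Deviations from a mean of 3 libraries depend on each other, so the same-numbered r values are not separate evidence that numbers pair samples. Alternatives are given in the closing section.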

Additional observations from a re-analysis of the deposited data

How the results depend on the processing

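Over 19 alternatives, the 21 fully described members gave 399 values: 331 kept direction and stayed past no threshold, 45 kept direction and passed, and 23 turned. Counts past an adjusted p of 0.05 by limma were 0 for all genes, members and the 116 other splicing genes, except in 4 settings. Leaving out 1 library gave 0 to 2412 genes, 0 to 16 members and 0 to 41 other splicing genes, every call coming from the fit without negative control 3. Array weights, which gave that library a weight of 0.0908, called 4808 genes, 24 members and 72 other splicing genes. The trend removed together with leaving out negative control 3 gave 277, 2 and 6. Without replicate 3 of both groups, chosen after the data were seen, the counts were 4377, 23 and 70. The replicate block, which pairs samples by number, called 0 of all genes, 0 members and 0 other splicing genes, and changed no call; at an unadjusted p under 0.05 it gave 1682 genes against 1344. The block with the trend removed also called 0.

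The median of the members was between 0.027 and 0.27 with 1 library left out, and moved by less than the spread between libraries (SD 0.206) in every alternative. That spread was itself taken with negative control 3 included. Leaving this library out gave the 0.27, against 0.076 in the main fit, while the median over all tested genes was then −0.0064. Directions turned in these cases, none passing limma; the cause was not tested. Srsf2 stood at 0.068 under quantile normalisation, 0.14 with array weights, 0.11 with the trend removed (also with the block), 0.50 with the trend removed and without negative control 3, 0.10 without replicate 3 of both groups, and between −0.244 and 0.342 with 1 library left out (highest without negative control 3). Hnrnpa1 stood at 0.039 under quantile normalisation. With the trend removed (with or without the block) Clk1 stood at −0.039, Clk2 at 0.036 and Hnrnpu at −0.13. With negative control 3 also left out Clk1 stood at −0.0071, Clk2 at 0.067, Clk3 at 0.026, Srrm1 at −0.14, Hnrnph2 at −0.057 and Hnrnpu at −0.26. Clk3 stood at 0.0070 without mimic 1. Each tested member held at least 239 recovered fragments in every library.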
